A study of Homo sapiens with 6 samples.

Results

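The genes described here encode the proteins that license replication origins, unwind DNA and copy it at the fork, together with the E2F and cyclin E genes that act at the entry into S phase. They are 51 genes chosen by name from the 20345 protein-coding genes of the table, and all 51 were found in it. RNA came from HEK 293FT, a human embryonic kidney cell line into which the large T antigen of SV40 was introduced. The 3 GFP libraries are titled HEK 293FTGFP cells and marked Vec, and the 3 CTRB1 libraries are titled HEK 293FTGFP-CTRB1 cells. GFP, green fluorescent protein, is thus named in the titles of both groups, and CTRB1, the chymotrypsinogen B1 gene, in those of the second alone. The labels name no promoter for either construct, do not say whether a line is 1 clone, and do not say whether the libraries of a group came from separate cultures, so p-values measure the spread between these libraries, which may be technical.

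In human cells the origin recognition complex, with CDC6 and CDT1, loads a ring of MCM2 to MCM7 onto DNA in G1. The kinase CDC7 and the proteins CDC45 and GINS then turn the ring into an active helicase, and polymerases, the sliding clamp PCNA and its loader RFC follow it. E2F transcription factors drive many of these genes, RB family proteins hold E2F back, and large T antigen binds RB family proteins, which is why lines that carry it cycle with high E2F activity.

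The GFP libraries held 52571457 to 159616285 counts and the CTRB1 libraries 27514767 to 32522018, so every GFP library was deeper than every CTRB1 library. CTRB1 itself had 0 to 5 counts in the GFP libraries and 19345 to 22749 in the CTRB1 libraries, as the titles say. Of 10 fibroblast markers 9 stayed below 1 FPKM in every library, as did 8 of 10 blood cell markers and 6 of 7 endothelial markers. PTPRC, which defines blood cells, had 0 to 3 counts a library, and CDH5, which defines endothelial cells, 0 to 17. Other markers of these lists were expressed, and the highest mean was 6.42 FPKM for a fibroblast, 6.14 for a blood cell and 21.1 for an endothelial marker. The summed FPKM of fibroblast markers was 7.04 to 7.62 in GFP and 7.36 to 8.51 in CTRB1 libraries, that of blood cell markers 9.79 to 10.9 and 5.67 to 8.23, and that of endothelial markers 20.1 to 21.8 and 21.0 to 22.2. Of 11 HEK293 background genes 9 were expressed, VIM and SIX2 among them, and PAX8 and LHX1 stayed below 1 FPKM. Since RNA was measured in bulk, fewer cells in a cell cycle phase and less RNA per cell cannot be told apart.

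Replication genes were lower in CTRB1 cells more often than higher, always by small amounts. Of the 51 genes, all of which were expressed highly enough to be tested (FPKM of at least 1 in at least 3 libraries), 25 fell, 8 rose and 18 did not pass the threshold (adjusted p under 0.05 in the quasi-likelihood test of edgeR). Over all 11961 genes tested, 18.9% were called lower and 18.6% higher, 37.4% in all. Among the replication genes 49.0% were called lower and 15.7% higher, 64.7% in all. Most of these genes are well expressed, and with a mean FPKM of at least 5 required, 44.3% of all genes were called. The median log2 change of the 51 genes was -0.065, against 0.003 over all genes tested, and no gene reached a change of 0.5. CCNE2 fell most, 1.34-fold, and CDT1 rose most, 1.21-fold. The 51 genes together took 0.715%, 0.708% and 0.706% of the counts of the GFP libraries, and a smaller share of each CTRB1 library, 0.691%, 0.674% and 0.677%.

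**Figure D1:**
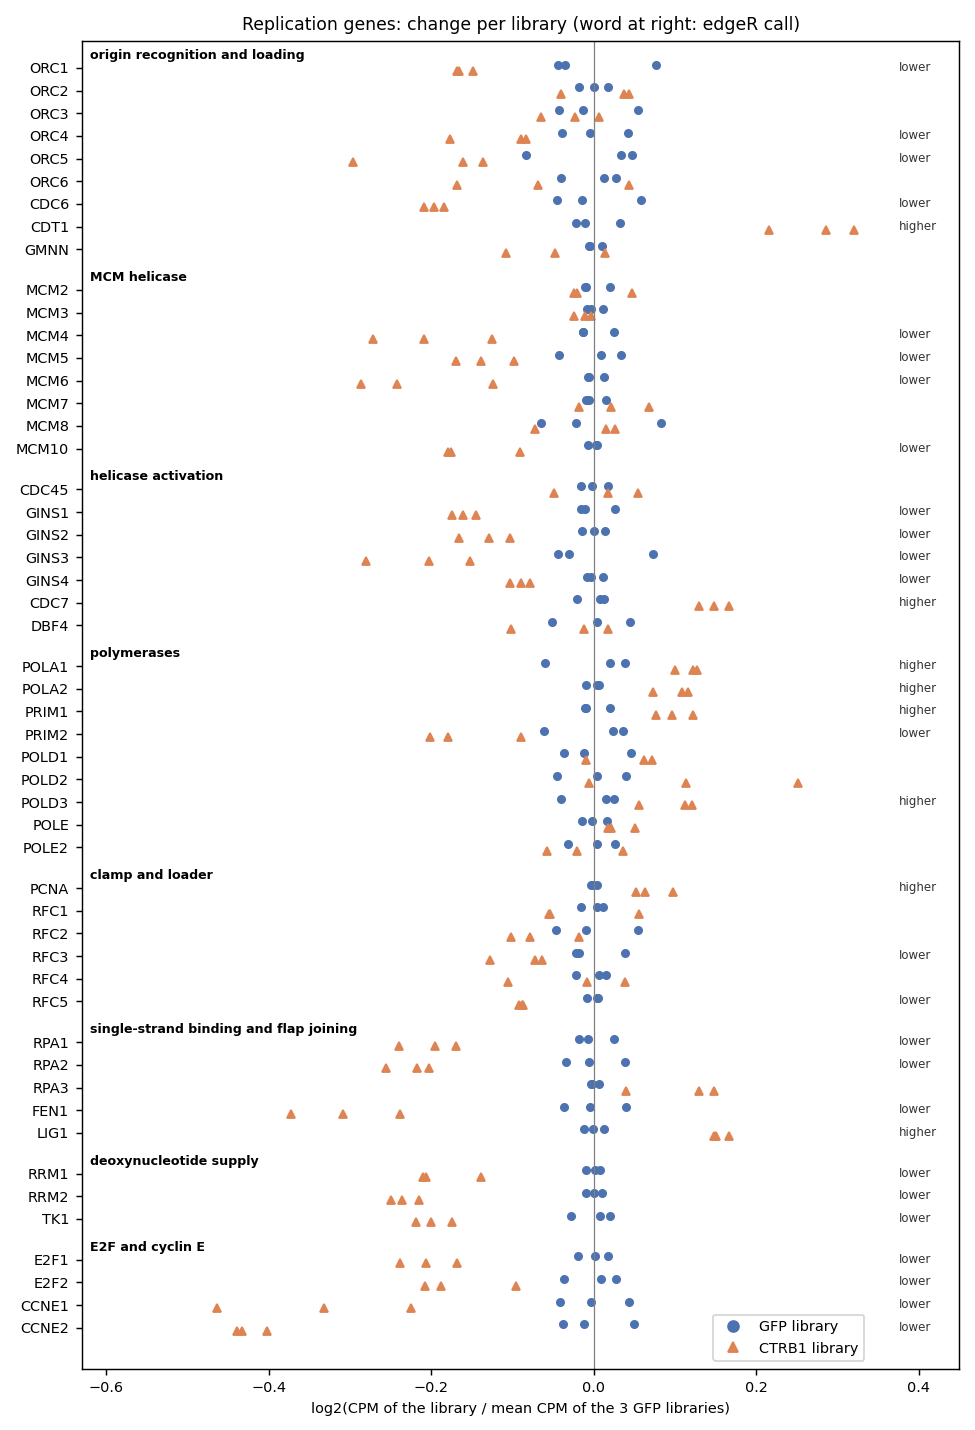
Change of each replication gene in each library, as log2 of its counts scaled to library size (CPM) over the mean of the 3 GFP libraries; circles are GFP and triangles CTRB1 libraries, and the word at the right gives the edgeR call. All 4 genes of the E2F and cyclin E group and all 3 of deoxynucleotide supply lie to the left of 0 in every CTRB1 library, while CDT1 and CDC7 lie to the right.

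The spread within a group was narrow beside these shifts. CPM, the count scaled to the library size, varied within a group with a median coefficient of variation of 1.61% in GFP and 2.80% in CTRB1 libraries over the 51 genes, against 2.65% and 4.42% over all genes tested. All 3 CTRB1 libraries lay below all 3 GFP libraries for 25 genes and above them for 10, so the groups did not overlap for 68.6% of the genes. Over all genes tested the groups did not overlap for 50%. The 25 are the genes called lower, and the 10 are the 8 called higher with POLE and RPA3. The sources used here do not name the tool of the authors' deposited table. In it, 24 of the 51 genes had an adjusted p under 0.05 and a negative change and 6 a positive one. Of all genes with an adjusted p there, 15.9% were lower and 14.7% higher, 30.6% in all. All 30 replication genes called there have the same direction and a call in edgeR. The authors' deposited table marks 593 of its 20345 genes as up or down, and none of the 51. An adjusted p under 0.05 alone does not bring the mark, since 4335 genes had one there. With so rare a mark, its absence says little about the 51 genes.

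Cyclin E and E2F genes stand at the head of the pathway, and all 4 fell, against 18.9% of all genes tested. CCNE2 (ENSG00000175305), whose product activates CDK2 at the G1 to S transition, was at 20.9, 20.5 and 21.8 CPM in the GFP libraries and at 15.6, 15.9 and 15.5 CPM in the CTRB1 libraries. The groups were well apart (log2 change -0.43 ± 0.061, SE; edgeR adjusted p = 0.000369). CCNE2 overlaps NDUFAF6 and INTS8 in the table's coordinates, and INTS8 was lower too (log2 change -0.17; edgeR adjusted p = 0.000772). Over the 6 libraries INTS8 had a mean of 128 CPM and NDUFAF6 of 21.7 CPM, against 18.4 CPM for CCNE2. Whether reads of INTS8 were counted for CCNE2 was not tested. CCNE1 (ENSG00000105173; chromosome 19, positions 30302805 to 30315215 as the table numbers them), the other cyclin E gene, was at 36.7, 35.5 and 34.6 CPM and then at 25.8, 30.4 and 28.3 CPM. It fell 1.26-fold with no overlap, though the CTRB1 libraries spread more widely (log2 change -0.34 ± 0.060, SE; edgeR adjusted p = 0.00148). E2F1 (ENSG00000101412; chromosome 20, positions 32263489 to 32274210), an activator of S phase genes that is also a target of E2F itself, was at 75.8, 76.6 and 74.7 CPM against 64.1, 65.6 and 67.4 CPM. Each CTRB1 library was lower than each GFP library, a 1.15-fold fall (log2 change -0.20 ± 0.030, SE; edgeR adjusted p = 0.000451). E2F2, its close relative, fell 1.12-fold (edgeR adjusted p = 0.0125), and it had no call once GFP replicate 1 was left out (edgeR adjusted p = 0.0548).

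E2F proteins bind DNA at sites close to TTTCCCGC, TTTCGCGC, TTTGCCGC and TTTGGCGC. These 4 words were searched on both strands, overlaps included, in promoter windows of RefSeq (GRCh38.p14) that run from 250 bases before to 50 bases after a transcript start. Windows were held for 44 of the 51 genes; MCM4, MCM5, GINS4, POLD3, RPA2, RPA3 and CCNE2 had none. At least 1 window of 22 genes (50% of 44) held a match, against 6.88% of 9714 tested genes. Counted by window, 22 of the 56 windows of these genes (39.3%) held a match, against 3.31% of all 35116 windows. By call, 8 of 20 genes that fell held one, 6 of 7 that rose and 8 of 17 without a call. The median log2 change was -0.014 for the 22 genes with a match and -0.102 for the 22 without. A match is a run of letters and was not tested for binding here. The 160 bases before the most upstream start are given for 3 genes that fell (MCM6, E2F1, GINS2), 3 that rose (CDT1, PCNA, POLA2) and 1 without a call (MCM7). All were picked from the genes with a match, so these stretches do not show how often a match occurs in either direction. Bases run 5′ to 3′ on the strand of the gene, and capitals mark the matches.
MCM6, chr2:135876444-135876603, minus strand: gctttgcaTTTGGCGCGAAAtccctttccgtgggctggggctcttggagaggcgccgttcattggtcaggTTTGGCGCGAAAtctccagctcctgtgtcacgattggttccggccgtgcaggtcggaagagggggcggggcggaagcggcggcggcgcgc
E2F1, chr20:33686386-33686545, minus strand: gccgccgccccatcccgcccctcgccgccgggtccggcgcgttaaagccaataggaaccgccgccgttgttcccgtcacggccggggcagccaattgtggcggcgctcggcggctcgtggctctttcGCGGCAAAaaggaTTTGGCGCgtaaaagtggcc
GINS2, chr16:85688955-85689114, minus strand: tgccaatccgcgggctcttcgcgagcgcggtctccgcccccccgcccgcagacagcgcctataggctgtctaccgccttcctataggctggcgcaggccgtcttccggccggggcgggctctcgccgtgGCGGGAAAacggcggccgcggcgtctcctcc
CDT1, chr16:88803629-88803788, plus strand: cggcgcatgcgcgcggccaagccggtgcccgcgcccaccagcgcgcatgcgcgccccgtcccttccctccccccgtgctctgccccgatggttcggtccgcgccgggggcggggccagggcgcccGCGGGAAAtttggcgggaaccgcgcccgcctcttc
PCNA, chr20:5126623-5126782, minus strand: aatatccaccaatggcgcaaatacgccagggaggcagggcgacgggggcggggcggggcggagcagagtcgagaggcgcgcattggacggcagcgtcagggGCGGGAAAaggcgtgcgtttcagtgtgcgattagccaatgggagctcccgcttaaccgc
POLA2, chr11:65261802-65261961, plus strand: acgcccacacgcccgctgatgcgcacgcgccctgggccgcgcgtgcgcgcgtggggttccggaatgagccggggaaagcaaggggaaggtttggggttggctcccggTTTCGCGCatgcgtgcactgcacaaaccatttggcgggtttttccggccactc
MCM7, chr7:100101398-100101557, minus strand: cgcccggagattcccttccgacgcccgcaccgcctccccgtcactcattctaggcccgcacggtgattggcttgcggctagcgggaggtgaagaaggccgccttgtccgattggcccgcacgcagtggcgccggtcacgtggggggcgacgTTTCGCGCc
MCM6 held 4 overlapping matches in 2 blocks, E2F1 held 2, and the others shown held 1 each in this stretch.

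Genes of origin recognition and loading were divided, with 4 of 9 lower and 1 higher, against 18.9% and 18.6% of all genes tested. CDT1 (ENSG00000167513; chromosome 16, positions 88869621 to 88875666), the loader that brings the MCM ring to origins, was at 117, 122 and 118 CPM in the GFP libraries and at 138, 145 and 149 CPM in the CTRB1 libraries. It was the gene with the largest rise of the 51, well outside the spread of either group (log2 change 0.27 ± 0.030, SE; edgeR adjusted p = 6.54e-05). CDC6 (ENSG00000094804; chromosome 17, positions 38443885 to 38459171), the ATPase that works with CDT1, was at 154, 144 and 147 CPM against 128, 129 and 131 CPM. It moved in the opposite direction, 1.15-fold lower in all CTRB1 libraries (log2 change -0.20 ± 0.029, SE; edgeR adjusted p = 0.000479). ORC1, the origin recognition subunit that human cells degrade in S phase, was at 61.7, 56.8 and 57.1 CPM against 52.1, 52.2 and 52.8 CPM. That fall was 1.12-fold without overlap (log2 change -0.16 ± 0.040, SE; edgeR adjusted p = 0.0104). ORC4 and ORC5, further subunits of the complex, fell 1.08-fold and 1.14-fold, and each lost its call in 3 of the 6 fits that left out 1 library. ORC4 lost it without GFP replicate 1 or 2 or CTRB1 replicate 2, and ORC5 without GFP replicate 1 or 2 or CTRB1 replicate 1, with edgeR adjusted p of 0.0523 to 0.0993. ORC2, ORC3 and ORC6 had log2 changes of 0.01, -0.03 and -0.07 and no call, but ORC6 was called without CTRB1 replicate 3 (edgeR adjusted p = 0.0344).

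Geminin, the product of GMNN, binds CDT1 and blocks a second round of loading. GMNN was at 89.4 ± 0.519 CPM in GFP and 86.6 ± 3.66 CPM in CTRB1 cells (SD, n = 3 each), with overlapping groups (log2 change -0.05; edgeR adjusted p = 0.273). In FPKM, which is scaled for transcript length, the ratio of CDT1 to GMNN was 0.463, 0.497 and 0.490 for the GFP libraries, while the CTRB1 libraries had 0.60, 0.622 and 0.602. The groups did not overlap, and the ratio of counts changed alike, by 0.32 on the log2 scale. This pair and the other 5 in the plot of ratios were chosen after their values were seen, so the ratios are given as a description, with no test.

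**Figure D2:**
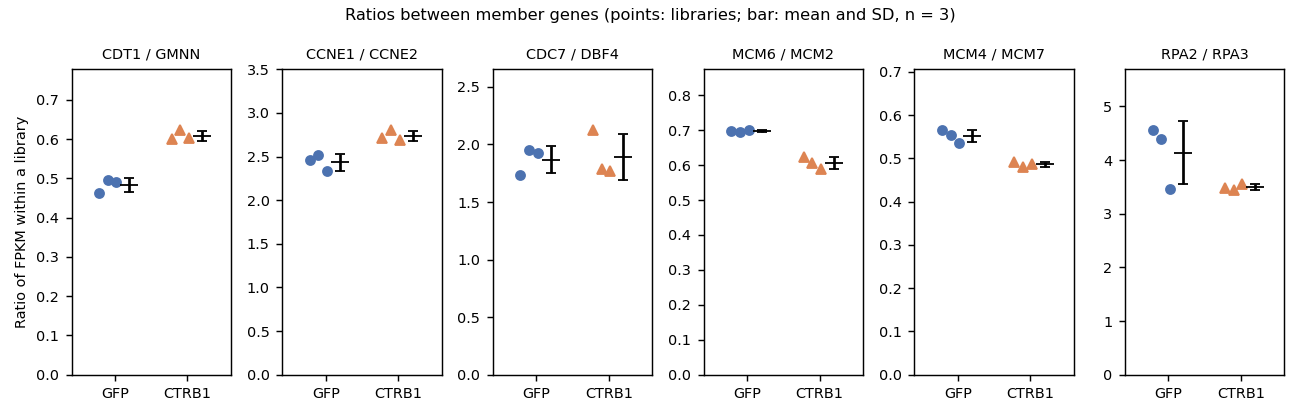
Ratio of the FPKM of 6 pairs of replication genes within each library; circles are GFP and triangles CTRB1 libraries, and bars give mean and SD (n = 3). CDT1 over GMNN lies at 0.463 to 0.497 in GFP and 0.60 to 0.622 in CTRB1 libraries, and MCM6 over MCM2 at 0.694 to 0.699 and 0.589 to 0.624.

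Subunits of the MCM ring did not move together. MCM4, MCM5 and MCM6 fell and MCM2, MCM3 and MCM7 did not pass. MCM4 (ENSG00000104738), one of the ATPase subunits, was at 454, 442 and 442 CPM in GFP libraries and at 409, 370 and 386 CPM in CTRB1 libraries. It fell 1.15-fold, with each CTRB1 library below the GFP range (log2 change -0.20 ± 0.033, SE; edgeR adjusted p = 0.000926). MCM6 (ENSG00000076003; chromosome 2, positions 136597196 to 136633996), which neighbours MCM2 and MCM4 in the ring, was at 241, 238 and 238 CPM against 219, 202 and 196 CPM. Its fall was 1.16-fold without overlap (log2 change -0.22 ± 0.036, SE; edgeR adjusted p = 0.00104). MCM5 fell 1.1-fold (log2 change -0.13 ± 0.028, SE; edgeR adjusted p = 0.00360). MCM2, MCM3 and MCM7 had log2 changes of 0.001, -0.013 and 0.024, with SEs of 0.026, 0.021 and 0.025. MCM2 and MCM7 had the other sign in FPKM, while MCM3 kept a small negative value.

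Within a library the ratio of MCM6 to MCM2 in FPKM was 0.697, 0.694 and 0.699 in GFP and 0.624, 0.606 and 0.589 in CTRB1 cells. MCM4 over MCM7 was 0.565, 0.554 and 0.537 and then 0.491, 0.479 and 0.488. Both ratios were lower in every CTRB1 library, in counts as well as in FPKM, and each sets a gene that was called lower over one that was not called. MCM10, which is needed to start unwinding, was at 148, 147 and 148 CPM against 138, 130 and 131 CPM. It fell 1.11-fold (log2 change -0.15 ± 0.027, SE; edgeR adjusted p = 0.00181), and in FPKM the fall was larger, -0.28 on the log2(FPKM + 1) scale. MCM8, which acts with MCM9 in recombination repair, had a log2 change of -0.01 and overlapping groups (edgeR adjusted p = 0.890). Of the 8 MCM genes none was called higher, against 18.6%, 18.5% and 10.5% of all genes in edgeR, DESeq2 and limma on FPKM. Among only 8 genes, a count of 0 is not far from these shares. None was higher at an unadjusted p under 0.05 either, and the share of all genes at that threshold was not computed.

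In helicase activation, all 4 GINS genes fell while CDC7 rose. Over all genes tested 18.9% were called lower and 18.6% higher. CDC7 (ENSG00000097046; chromosome 1, positions 91966408 to 91991321), the kinase that phosphorylates the MCM ring, was at 146, 143 and 145 CPM in GFP and 160, 158 and 162 CPM in CTRB1 libraries. The rise was 1.11-fold without overlap (log2 change 0.15 ± 0.023, SE; edgeR adjusted p = 0.000585). DBF4, the subunit that activates CDC7, had a log2 change of -0.03 in counts and of 0.12 in log2(FPKM + 1), neither of them called, so its direction depends on the unit. CDC7 over DBF4 lay between 1.73 and 1.95 in GFP and between 1.77 and 2.12 in CTRB1 libraries in FPKM, and these ranges overlap. In counts the same ratio was 1.81 to 1.93 in GFP and 2.00 to 2.21 in CTRB1 libraries, without overlap. GINS1 was at 90.7, 88.0 and 88.4 CPM against 79.6, 78.9 and 80.5 CPM, and GINS2 was at 89.4, 90.3 and 91.2 CPM against 82.6, 80.5 and 84.1 CPM. Both are subunits of the tetramer that joins CDC45 to the ring, and both fell without overlap, with log2 changes of -0.16 ± 0.027 and -0.13 ± 0.028 (SE) and edgeR adjusted p of 0.00104 and 0.00341. GINS3 and GINS4 fell 1.16-fold and 1.07-fold, the latter with no call without GFP replicate 1, 2 or 3 (edgeR adjusted p = 0.0628, 0.0525 and 0.0660). CDC45 had a log2 change of 0.01 and no call (edgeR adjusted p = 0.829). GINS2 overlaps GSE1 in the table, and no source used here says whether strand was used in counting.

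Of 9 polymerase genes 4 rose (44.4%) and 1 fell (11.1%) in counts, against 18.6% higher and 18.9% lower over all genes tested. In FPKM limma called 1 higher, POLA2, and 1 lower, PRIM2. Over all genes limma called 10.5% higher and 16.2% lower, so these 2 counts are near the background. POLA2 (ENSG00000014138; chromosome 11, positions 65029233 to 65073060), the second subunit of polymerase alpha, was at 113, 113 and 112 CPM in GFP and 121, 122 and 118 CPM in CTRB1 libraries. It rose 1.07-fold (log2 change 0.10 ± 0.024, SE; edgeR adjusted p = 0.00787). POLA1, the catalytic subunit of polymerase alpha, was at 105, 97.8 and 103 CPM against 111, 111 and 109 CPM. The groups did not overlap (log2 change 0.12; edgeR adjusted p = 0.0114), but no call remained once GFP replicate 2 was left out (edgeR adjusted p = 0.0534). PRIM1, the catalytic subunit of primase, was at 55.0, 56.2 and 55.0 CPM against 58.4, 59.2 and 60.2 CPM, while PRIM2, its partner subunit, fell (log2 changes 0.10 and -0.16; edgeR adjusted p = 0.0349 and 0.0415). POLD3, an accessory subunit of polymerase delta, rose 1.07-fold (edgeR adjusted p = 0.0365).

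PRIM1, PRIM2 and POLD3 each kept the call in 1 of the 6 fits that left out 1 library, and none of the 3 was called by DESeq2. PRIM1 kept it without CTRB1 replicate 1, PRIM2 without CTRB1 replicate 3 and POLD3 without CTRB1 replicate 2. PRIM1 shares its region with NACA, which was at 800 CPM and rose by 0.08 on the log2 scale. POLD2 was not called in the main test (log2 change 0.13, edgeR adjusted p = 0.0739), with CTRB1 libraries at 126 ± 11.3 CPM (SD, n = 3). It was called higher by DESeq2 (DESeq2 adjusted p = 0.0282) and with a block for replicate number (edgeR adjusted p = 0.0212). Of the 6 fits that left out 1 library, only that without CTRB1 replicate 3 called it (edgeR adjusted p = 0.00962). Limma on FPKM did not (limma adjusted p = 0.258). POLD1, POLE and POLE2 had log2 changes of 0.04, 0.03 and -0.01 and no call. POLD1 and POLE are the catalytic subunits of the polymerases that copy the lagging and the leading strand.

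Clamp and clamp loader genes moved least. PCNA (ENSG00000132646; chromosome 20, positions 5095599 to 5107272), the ring that tethers polymerases to DNA, was at 320, 321 and 319 CPM in GFP and 332, 342 and 334 CPM in CTRB1 libraries. The rise was 1.05-fold (log2 change 0.07 ± 0.022, SE; edgeR adjusted p = 0.0289). It was no longer called without GFP replicate 1, 2 or 3 or without CTRB1 replicate 2, with edgeR adjusted p of 0.0609 to 0.107. RFC5, a small subunit of the loader, was at 105, 104 and 105 CPM against 98.3, 98.6 and 98.7 CPM, and RFC3, another, was at 148, 148 and 154 CPM against 143, 142 and 137 CPM. Both fell 1.06-fold without overlap (edgeR adjusted p = 0.0130 and 0.0250). RFC5 lost its call without GFP replicate 3 (edgeR adjusted p = 0.0629), and RFC3 lost it without GFP replicate 3 or CTRB1 replicate 3 (edgeR adjusted p = 0.137 and 0.0946). RFC5 overlaps WSB2, which was lower as well (log2 change -0.16). RFC1, RFC2 and RFC4 had log2 changes of -0.02, -0.06 and -0.02 and no call.

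The genes of single-strand binding and flap removal held some of the clearest falls. FEN1 (ENSG00000168496; chromosome 11, positions 61560109 to 61564716), the nuclease that trims flaps between Okazaki fragments, was at 166, 157 and 161 CPM in GFP and 137, 130 and 125 CPM in CTRB1 libraries. It fell 1.23-fold, with a wide gap between the groups (log2 change -0.30 ± 0.034, SE; edgeR adjusted p = 7.31e-05). FEN1 overlaps FADS2, which was lower too (log2 change -0.20; edgeR adjusted p = 0.00165), and TMEM258, which was not called. RPA1, the large subunit of the single-strand binding trimer RPA, was at 244, 237 and 239 CPM against 210, 204 and 214 CPM. RPA2, the middle subunit, was at 211, 201 and 205 CPM against 179, 172 and 177 CPM. Both fell in every CTRB1 library, 1.15-fold and 1.17-fold (edgeR adjusted p = 0.000219 and 0.000125). RPA3, the smallest subunit, had a log2 change of 0.11 in counts and no call (edgeR adjusted p = 0.0550), but was called without CTRB1 replicate 3 (edgeR adjusted p = 0.0166). LIG1, the ligase that seals the fragments, had 104 ± 0.902 CPM in GFP and 116 ± 0.834 CPM in CTRB1 cells (SD, n = 3). That rise of 1.11-fold was called (edgeR adjusted p = 0.000553).

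All 3 genes of deoxynucleotide supply fell, against 18.9% of all genes tested. RRM2 (ENSG00000171848; chromosome 2, positions 10262455 to 10271545), the small subunit of ribonucleotide reductase whose level rises in S phase, was at 252, 253 and 255 CPM in GFP and 218, 213 and 215 CPM in CTRB1 libraries. It had the smallest adjusted p of the 51 genes (log2 change -0.23 ± 0.023, SE; edgeR adjusted p = 3.12e-05). RRM1, the large subunit, was at 286, 283 and 285 CPM against 259, 246 and 247 CPM. TK1, the cytosolic thymidine kinase of the salvage route, was at 119, 120 and 116 CPM against 103, 101 and 105 CPM. The groups did not overlap for either gene, which fell 1.14-fold and 1.15-fold (edgeR adjusted p = 0.000326 and 0.000224).

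**Figure D3:**
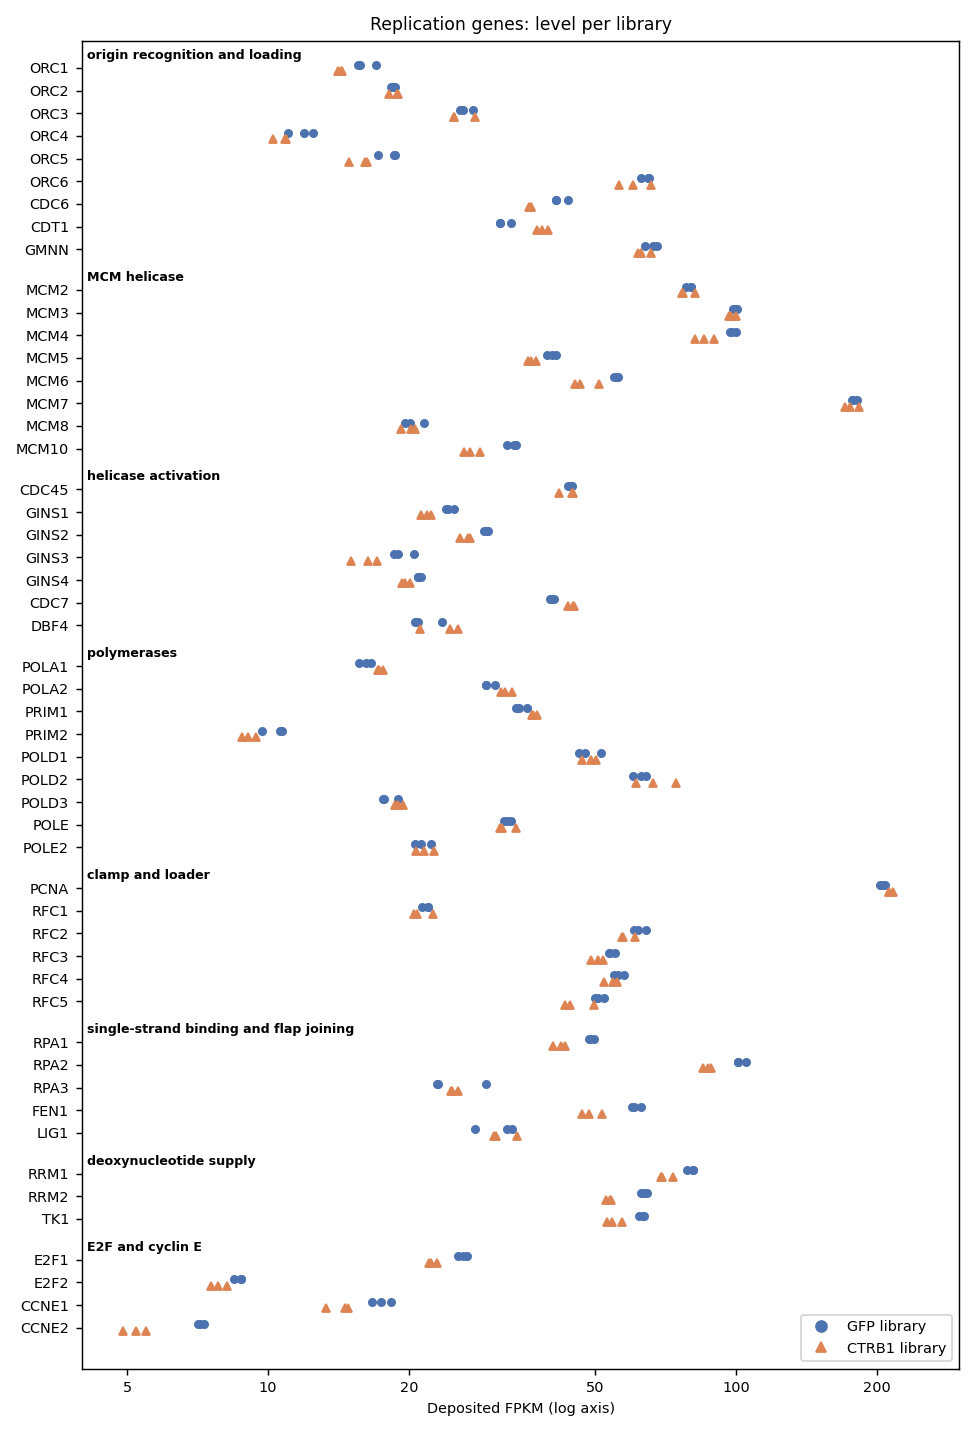
Deposited FPKM of each replication gene in each library on a log axis; circles are GFP and triangles CTRB1 libraries. PCNA and MCM7 stand above all other genes shown, CCNE2 and E2F2 below them.

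Levels per transcript length differed far more between genes than between groups. Over the 6 libraries mean FPKM ran from 6.19 for CCNE2 to 209 for PCNA, with a median of 35.2 over the 51 genes. PCNA was followed by MCM7 (177 FPKM), MCM3 (98.8 FPKM) and RPA2 (94.7 FPKM). PCNA and MCM7 did not overlap in any library, whereas MCM3 at 96.5 to 100 FPKM and RPA2 at 85.1 to 105 FPKM did. Within complexes the levels were unequal: ORC6 was at 62.5 FPKM and ORC4 at 11.2 FPKM, and PRIM1 at 35.8 FPKM and PRIM2 at 9.72 FPKM. The ring subunits ran from 38.4 FPKM for MCM5 to 177 FPKM for MCM7. CCNE1 exceeded CCNE2 in each library, by 2.33 to 2.51 times in GFP and 2.69 to 2.80 times in CTRB1 libraries in FPKM, but in counts the ranges of the ratio overlapped between the groups.

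For some genes the result differed between counts and FPKM. Limma on log2(FPKM + 1) called 20 of the 51 genes lower and 3 higher, against 16.2% and 10.5% of all genes tested (26.7% in either direction). All 23 were called in the same direction by edgeR. The share of higher among the calls was thus 13.0% in FPKM and 24.2% in counts for these genes, and 39.2% and 49.6% for all genes. The 3 called higher in both were CDT1, CDC7 and POLA2. LIG1 rose in counts, but its FPKM was 33.2, 32.5 and 27.6 in GFP and 34.0, 30.7 and 30.4 in CTRB1 libraries, with overlapping groups and no call (limma adjusted p = 0.789). RPA3 was at 23.1, 23.0 and 29.2 FPKM against 25.4, 24.7 and 24.5 FPKM, so that GFP replicate 3 alone stood apart. POLA1, PRIM1, POLD3, PCNA, ORC4, GINS4, RFC3, RFC5 and E2F2 also had no call in FPKM, with limma adjusted p of 0.0508 to 0.234.

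**Figure D4:**
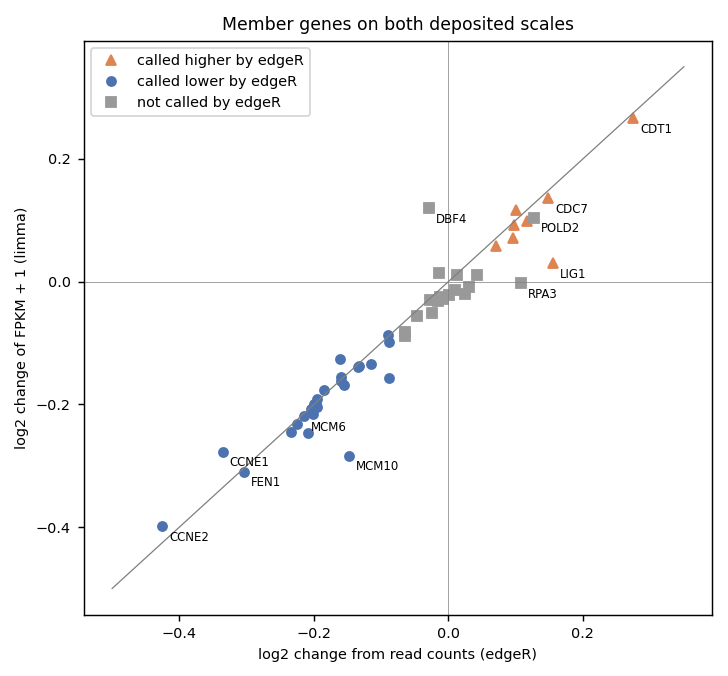
Log2 change of each replication gene from counts (edgeR, horizontal) and from FPKM + 1 (limma, vertical), with the line of equal values. Most genes lie near the line, while LIG1, RPA3 and MCM10 lie below it (0.03, -0.002 and -0.28 in FPKM) and DBF4 above it (0.12 in FPKM).

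The number of replication genes called depended on the libraries used, as did that of all genes. With all 6 libraries 18.6% of all genes were called higher and 18.9% lower. Without GFP replicate 1, 2 or 3 the counts of higher genes were 5, 4 and 5, in place of 8, against 13.7%, 13.4% and 13.4% of all genes. Those of lower genes were 20, 21 and 21, in place of 25, against 14.7%, 15.1% and 14.4% of all genes. Without CTRB1 replicate 1, 2 or 3 the replication genes gave 7, 6 and 8 higher and 23, 23 and 25 lower, against 17.8%, 17.5% and 16.4% higher and 18.9%, 18.1% and 17.8% lower over all genes. DESeq2 called 7 higher and 24 lower, against 18.5% and 19.0% of all genes, and limma on log2(TPM + 1) called 3 and 20, against 10.1% and 16.6%. CDT1, CDC7, POLA2 and LIG1 were called higher, and 18 genes lower, in all 6 fits that left out 1 library. The share of all genes called in all 6 fits was not counted, so these numbers have no background beside them. In all, 13 of the 51 genes overlap another gene of the table, and 10, PCNA, RPA2, RRM2 and FEN1 among them, have named pseudogenes in RefSeq, so that the division of reads is uncertain for them.

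Other genes of the pathway were taken from lists chosen by function, and their counts stand against 18.9% lower and 18.6% higher over all genes in edgeR, and 16.2% and 10.5% in FPKM with limma. Of 41 further replication genes, 12 were lower and 10 higher, with a median log2 change of -0.004, and in FPKM 10 were lower and 5 higher. CLSPN, the checkpoint mediator claspin at the fork, TWNK, the mitochondrial helicase, and TOP1, a topoisomerase, fell by 0.35, 0.36 and 0.18 on the log2 scale, and TIMELESS, of the fork protection complex, MTBP, an origin firing factor, and ATAD5, which unloads PCNA, rose by 0.13, 0.22 and 0.20. Of 18 nucleotide supply genes 9 were lower and 3 higher, and in FPKM 7 and 2. DCTPP1, PAICS and NME1 had log2 changes of -0.38, -0.12 and -0.25, and IMPDH2, RRM2B and GART of 0.17, 0.22 and 0.07. RRM2B, the p53-inducible counterpart of RRM2, thus moved in the opposite direction to it (edgeR adjusted p = 0.00481). GART kept its call in 2 of the 6 fits that left out 1 library, those without CTRB1 replicate 1 or 2. In FPKM, TWNK, PAICS and RRM2B had the same direction but no call (limma adjusted p = 0.173, 0.426 and 0.0508). Of 30 genes of G1 to S control 7 were lower and 6 higher, shares near those of all genes, and in FPKM 8 were lower and 4 higher. CDC25A, E2F3 and TFDP1, which encode a CDK phosphatase, an activating E2F and its dimer partner, fell by 0.25, 0.19 and 0.14. CCND2, RBL2 and RBL1, a D cyclin and the RB relatives p130 and p107, rose by 0.45, 0.28 and 0.34 (edgeR adjusted p = 4.43e-06, 6.14e-05 and 0.000516).

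Genes of the replication checkpoint and of mitosis were higher more often than lower. Of 20 checkpoint genes 7 were higher and 1 lower, the median log2 change being 0.059. CHEK1, the kinase that ATR activates at stalled forks, FANCI and RAD17 rose by 0.24, 0.18 and 0.26, and MSH6 fell by 0.14. Limma on log2(FPKM + 1) called 3 of these genes higher, and FANCI was not among them (log2 change 0.009; limma adjusted p = 0.945). Of 20 markers of G2 and mitosis 8 were higher in edgeR and 6 in FPKM with limma, with a median log2 change of 0.073 in counts. TOP2A, NUSAP1 and TPX2, which had the smallest adjusted p of these, had log2 changes of 0.24, 0.19 and 0.12. None was lower in edgeR, DESeq2 or limma on FPKM, against 18.9%, 19.0% and 16.2% of all genes. At an unadjusted p under 0.05 in edgeR 0 were lower, and the share of all genes there was not computed. The difference between this list and the replication genes was not tested, and the part that the share of cells in each phase has in either was not tested.

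**Figure D5:**
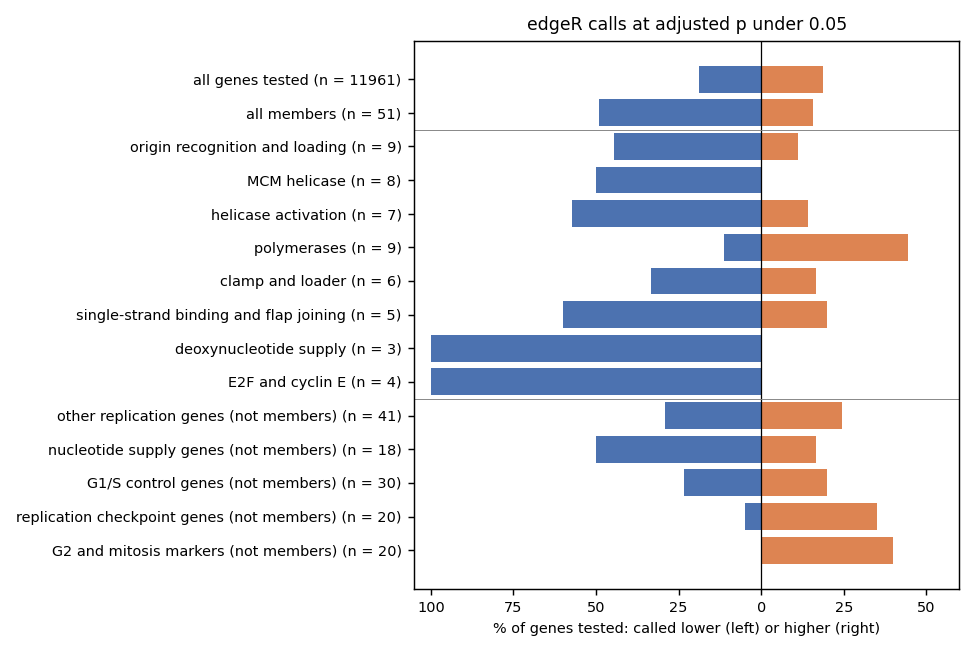
Percent of genes tested that edgeR called lower (left) or higher (right) at an adjusted p under 0.05, for all 11961 genes, the 51 replication genes, their groups by role, and 5 lists of other genes; n is the number of genes tested. The 51 genes reach 49.0% lower and 15.7% higher, and all genes 18.9% and 18.6%.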

How the data were processed

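One deposited table with 3 GFP and 3 CTRB1 libraries was used. Per the file headers it holds raw read counts per gene, and FPKM and TPM values computed by the authors. The authors' deposited comparison adds log2 changes and p-values. Of tools, cutadapt 1.9.1, HISAT2 2.2.1 and HTSeq 0.6.1 appear in the submitters' processing notes, beside the mouse build GRCm38.p5, although all identifiers are human; no role is given. Neither the build of the coordinates nor the use of strand is given in the sources used here.

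Genes with FPKM of at least 1 in at least 3 libraries (11961) were tested with edgeR 4.0.16 in R 4.3.3 (TMM factors 0.996 to 1.004, quasi-likelihood F test, no covariates), and Benjamini-Hochberg adjustment ran over all of them with a threshold of 0.05. SEs were derived from the log2 change and F. CPM uses TMM-adjusted library sizes. Alternatives were DESeq2 1.42.0, edgeR with the size factors of DESeq2, no filter on expression or a stricter one (mean FPKM of at least 5), a block for replicate number, fits with 1 library left out, and limma 3.58.1 on log2(FPKM + 1), log2(FPKM + 0.1) and log2(TPM + 1). Scripts were tested on simulated data first. A floor of 3 counts was 0.0188 to 0.109 CPM, counting error only.

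The 51 genes and all lists were chosen with earlier results of these data known. Genes were given library by library where they were among the 3 smallest adjusted p of their role; up to 3 called genes in each direction were named from other lists. Other genes named for an overlap, and the ratio pairs and promoters, were chosen after values were seen. UHRF1, NEFL and PECAM1 were not analysed here.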

Additional observations from a re-analysis of the deposited data

How the results depend on the processing

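No gene called in the main test changed direction under any alternative. Of 264 tests of the 33 called genes under the 8 alternatives that keep all libraries, 224 kept the call and 40 did not. The count of higher replication genes was 8 in the main test and 5 with no expression filter, the latter against 10.5% of all genes then tested. It was 3 with limma on log2(FPKM + 1), log2(FPKM + 0.1) or log2(TPM + 1), against 10.5%, 10.5% and 10.1% of all genes. When 1 library was left out it was 4 to 8. The cause of these differences was not tested. With a mean FPKM of at least 5 required, 10 replication genes were higher and 24 lower, against 22.2% and 22.1% of all genes then tested. The count of lower replication genes was 20 to 25 under all alternatives, against 13.1% to 22.1% of all genes. Over all genes limma called 1250, 1250 and 1209 higher on these 3 scales, against 2221, and further replication genes gave 5 higher against 10 and checkpoint genes 3 against 7 on each of them. Leaving out 1 library gave 1605 to 2134 higher and 1728 to 2256 lower genes in all, and 1 to 2 lower checkpoint genes.

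Same-numbered libraries of the groups did not deviate together (correlations of -0.08, -0.08 and -0.13 over genes tested). In 0 of 3 pairs was the own number the best partner. With the replicate number as a block 8 replication genes were higher and 24 lower, against 17.7% and 18.4% of all genes.

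Among genes without a call, signs near 0 were not stable. MCM2 (0.001) was -0.0008 with DESeq2 size factors, -0.0062 with no filter, and -0.0216, -0.0218 and -0.0247 with limma on the 3 scales. On those scales MCM7 was -0.0195, -0.0196 and -0.0226, CDC45 -0.0145, -0.0148 and -0.0176, POLE -0.0095, -0.0098 and -0.0127, and RPA3 -0.0025, -0.0023 and -0.0054. DBF4 was 0.1194, 0.1241 and 0.1192 and POLE2 0.0138, 0.0144 and 0.0112. MCM8 was 0.0035 with a mean FPKM of at least 5. With 1 library left out the log2 change ran from -0.0222 to 0.0137 for MCM2, -0.0022 to 0.0396 for ORC2, -0.046 to 0.0002 for ORC3, -0.0385 to 0.0317 for MCM8, -0.014 to 0.0364 for CDC45, -0.0557 to 0.0056 for DBF4, -0.0395 to 0.0067 for POLE2, -0.0538 to 0.0042 for RFC1 and -0.056 to 0.0146 for RFC4. The CTRB1 libraries are the shallower ones, which limits the precision of the changes of genes at low counts.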
